A study of Arabidopsis thaliana with 5 samples.

Results

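AMS and EMS1 are 2 genes of the anther, the pollen-bearing part of the stamen, and their transcripts were followed across 5 arrays of clipped Arabidopsis thaliana shoots. The members were fixed by gene name: each is measured by 1 probe set, so the account covers 2 genes out of 13356 with a probe set that carries a single gene name. Both were picked with their values on these arrays already known. Their levels are therefore given as a description and without a test.

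Of the arrays, 3 hold RNA from Columbia plants and 2 hold RNA from Landsberg erecta plants. These ecotypes had been picked because their compensation after damage differs. Plants of both ecotypes grew in a greenhouse from cold-treated seed, with 16 h of light and 8 h of darkness, and both were clipped at bolting to mimic browsing by a mammal. The tissue is given as secondary meristem, collected the day after clipping. No unclipped sample was used here, so every array shares the clipping treatment, and the labels call the arrays biological replicates without saying how many plants each one pooled.

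Anthers form several cell layers around the cells that will undergo meiosis, and the innermost layer, the tapetum, feeds the developing microspores and supplies material for the pollen wall. EMS1 encodes a leucine-rich repeat receptor kinase that specifies tapetal cells early in anther development, acting with the small secreted protein TPD1 and the co-receptors SERK1 and SERK2. AMS encodes a basic helix-loop-helix transcription factor that acts later in the tapetum and is needed for microspore development, downstream of DYT1 and TDF1. TPD1, SERK1, SERK2, DYT1 and TDF1 have no probe set with a single named gene in the annotation and were not analysed here. AMS lies on chromosome 2 and EMS1 on chromosome 5 of the RefSeq assembly TAIR10.1.

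AMS, the tapetum regulator, had log2 values of 6.51, 6.76 and 4.95 on Columbia replicates 1, 2 and 3, against 5.97 and 6.96 on Landsberg erecta replicates 1 and 2. The lowest array was Columbia replicate 3 and the highest Landsberg erecta replicate 2, and the ecotypes overlapped. The 3 Columbia arrays averaged 6.07 ± 0.98 (SD, n = 3), and the Landsberg erecta pair averaged 6.46 ± 0.70 (SD, n = 2). The ecotype difference of -0.39 is smaller than either SD. Without Columbia replicate 3 the difference turned to 0.18. The array with the most AMS signal exceeded the one with the least by 4.02-fold.

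EMS1, the receptor kinase gene, had log2 values of 4.93, 4.93 and 3.34 on Columbia replicates 1, 2 and 3, against 4.93 and 5.74 on Landsberg erecta replicates 1 and 2. Its extremes fell on the same arrays as those of AMS, while 3 arrays held one identical value, so only 3 distinct values were measured and the spread of EMS1 may be understated. The 3 Columbia arrays averaged 4.40 ± 0.92 (SD, n = 3), and the Landsberg erecta pair averaged 5.34 ± 0.57 (SD, n = 2). No Columbia value lay above a Landsberg erecta value, and Columbia replicates 1 and 2 equalled Landsberg erecta replicate 1. The difference of -0.94 is somewhat larger than the within-ecotype SD of 0.82 pooled over both, and it was -0.41 without Columbia replicate 3. The highest array lay 5.29-fold above the lowest.

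**Figure D1:**
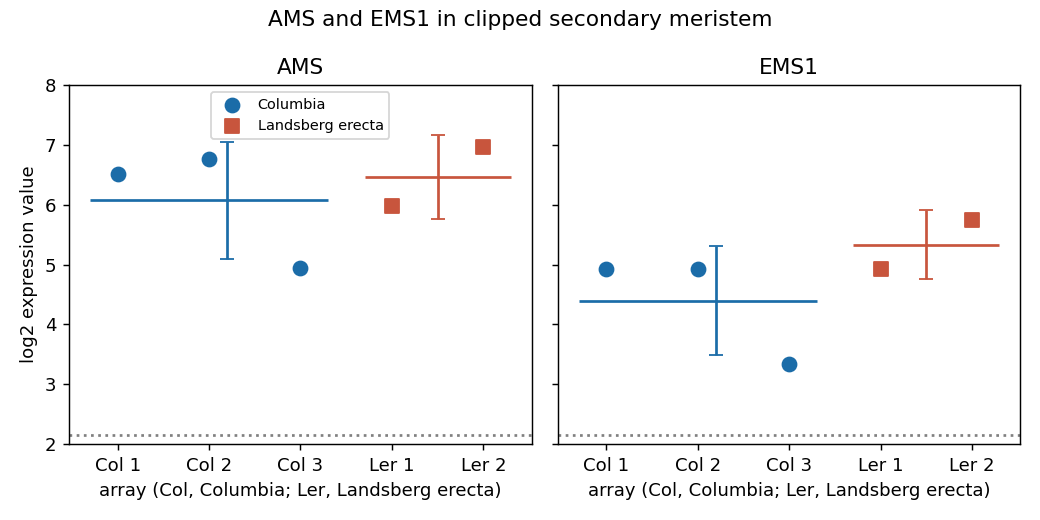
Log2 expression values of AMS and EMS1 on each array, Columbia as circles and Landsberg erecta as squares; horizontal lines are ecotype means, bars are 1 SD, and the dotted line is the lowest value of the table, 2.15. In both genes Columbia replicate 3 is lowest (4.95 and 3.34) and Landsberg erecta replicate 2 highest (6.96 and 5.74).

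Both genes varied within the ecotypes. On Columbia replicate 3 the AMS value was 3.23-fold below the mean of the other Columbia arrays (a log2 difference of -1.69), and the EMS1 value was 3.02-fold below (-1.59). Between the Landsberg erecta arrays, replicate 2 exceeded replicate 1 by 0.99 for AMS and by 0.81 for EMS1. The ranges over the 5 arrays, 2.01 for AMS and 2.40 for EMS1, were wider than those of 99.4% and 99.7% of the named probe sets. No array had either gene at the lowest value of the table, 2.15, where low signals are collected.

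AMS and EMS1 followed each other across the arrays, with a Pearson r of 0.93 over 5 arrays that share their 2 ecotypes. This is a description of few points. Leaving out Columbia replicate 3 lowered r to 0.63 over 4 arrays, whereas leaving out any other single array gave 0.91 to 0.97. After each ecotype's mean was subtracted, r was 0.99. Since these are whole-tissue extracts, fewer anther cells in a sample and less transcript per cell cannot be told apart.

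Columbia replicate 3 stood apart from the other arrays in general. The 4 array pairs that include it had 300 to 636 probe sets at least 2-fold apart, against 100 to 254 in the other 6 pairs. Array medians were 5.44 to 5.46 in Columbia and 5.44 and 5.50 in Landsberg erecta. The log2 ratio of the 3 prime to the 5 prime GAPDH control, a sign of RNA integrity, was 0.89, 0.92 and 0.98 on Columbia replicates 1 to 3, against 1.25 and 1.22 in Landsberg erecta. The 25S ribosomal RNA control read 7.77, 8.11 and 8.17 in Columbia and 7.16 and 6.53 in Landsberg erecta. On both controls Columbia replicate 3 was the highest Columbia array, and replicate 2 was next. The part of RNA quality in their course was not tested.

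No difference between the ecotypes passed the threshold for any probe set. Limma with Benjamini-Hochberg adjustment over 22746 probe sets called 0 higher in Columbia (0%) and 0 lower in Columbia (0%), with a smallest adjusted p of 0.165. At an unadjusted p under 0.05, limma gave 265 higher in Columbia (1.17%) and 141 lower in Columbia (0.62%). The gene lists below accordingly hold no called member for the ecotype contrast, and they are read by their values on each array.

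Genes of the anther and tapetum ranged from those with a course close to that of AMS and EMS1 to those that hardly varied or ran the other way. The lists of anther cell specification, tapetum transcription factors and pollen wall and tapetum products were chosen with earlier results of these data known. They hold 59 loci besides AMS and EMS1, of which 15 were measured, that is, have a probe set with a single gene name. Among these 15, 12 had a positive r with the mean of AMS and EMS1, 1 a negative r, and 2 held 1 value on all arrays. Their median r was 0.68 over the 13 that varied, beside a median of 0.04 over 9016 named genes that varied. Both medians include genes that hardly varied. In the lists AT2G31210, SPL, AT1G75920 and ROXY1 ranged over 0.01, 0.05, 0.11 and 0.12, so the positive r of each is a loose measure. A range of at least 1 with every array above the lowest value was found for 6 of the 15, against 4.07% of all named genes. Columbia replicate 3 was the lowest array for all of these 6, and for 26.1% of all named genes past that filter. None of the 15 had an unadjusted limma p under 0.05 for the ecotypes (0), and none passed the adjusted test (0).

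AT1G06170, in the list of tapetum transcription factors, had the course closest to that of AMS and EMS1 among the 544 named genes ranked below. Its log2 values were 4.78, 4.79 and 3.24 in Columbia, against 4.28 and 5.22 in Landsberg erecta, so that the same arrays were lowest and highest. Its value on Columbia replicate 3 was 2.92-fold below the mean of the other Columbia arrays, and r was 0.99. The difference between the ecotypes was -0.49, its 95% interval ran from -2.62 to 1.65, and limma gave an adjusted p of 1. AT2G31210, the other measured transcription factor of that list, was at or next to the lowest value, 2.15, on every array.

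Several loci of the list of pollen wall and tapetum products were lowest on the same array, at signals that differed widely between them. AT5G62080 had 9.95, 9.78 and 8.32 in Columbia, against 9.78 and 10.34 in Landsberg erecta, and its r was 0.98. AT5G07230 had 9.21, 9.23 and 7.47 in Columbia, against 8.90 and 9.32 in Landsberg erecta, with an r of 0.97. On Columbia replicate 3 these 2 loci read 2.92-fold and 3.37-fold below the mean of the other Columbia arrays. AT1G33430 had 6.48, 6.61 and 4.82 in Columbia, against 6.0 and 6.41 in Landsberg erecta, which is 3.30-fold lower on Columbia replicate 3, with an r of 0.94. AT5G52160 had 4.15, 4.18 and 3.16 in Columbia, against 3.66 and 4.27 in Landsberg erecta, with an r of 0.96. For these 4 loci the differences between the ecotypes were -0.71, -0.47, -0.23 and -0.14, and limma gave an adjusted p of 1 for each.

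Other genes of that list did not share the course so closely. SWEET8, a sugar transporter gene whose mutant has ruptured pollen grains, had 3.24, 4.19 and 3.06 in Columbia, against 3.24 and 3.79 in Landsberg erecta (r = 0.67). It was lowest on Columbia replicate 3 but nearly as low on replicate 1. AT1G75880 had 4.45, 4.57 and 4.0 in Columbia, against 4.72 and 4.77 in Landsberg erecta (r = 0.90). AT1G75900 ran the other way, at 10.37, 10.23 and 10.68 in Columbia, against 10.48 and 10.49 in Landsberg erecta (r = -0.68), and its range was 0.45. AT1G75890 and AT1G75920 ranged over only 0.30 and 0.11.

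The measured genes of anther cell specification other than EMS1 ranged over 0.12 or less. SPL, needed to form the cells that enter meiosis, had 2.80 on all Columbia arrays, against 2.80 and 2.86 in Landsberg erecta. ROXY1, a glutaredoxin gene of petal and anther development, ranged over 0.12 around a mean of 3.87. ROXY2, which acts with ROXY1 in anthers, and JAG, a zinc finger gene of floral organ growth, held 2.15 throughout. The early receptor EMS1 was thus the single measured gene of this list with a range of at least 1.

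**Figure D2:**
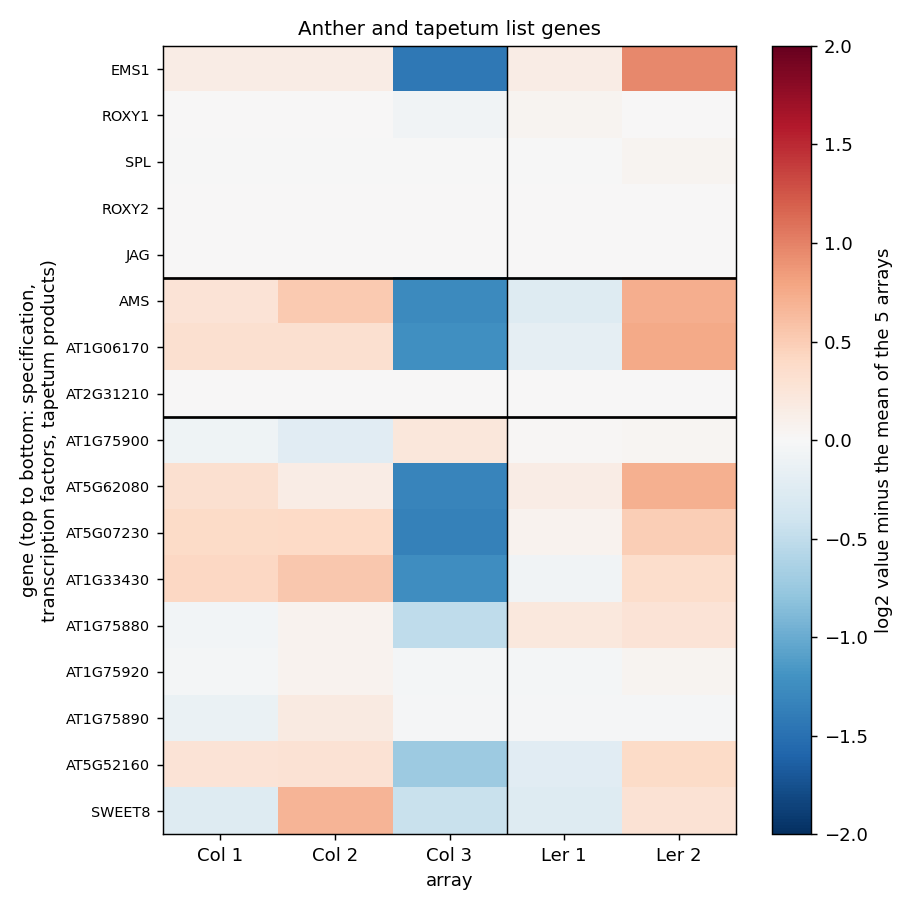
Log2 value of each measured gene of the 3 anther and tapetum lists minus its mean over the 5 arrays, in colour, with Columbia arrays left of the vertical line and lists separated by horizontal lines. EMS1, AMS, AT1G06170, AT5G62080, AT5G07230 and AT1G33430 lie more than 1 below their mean on Columbia replicate 3, whereas SPL, ROXY1, ROXY2 and JAG are flat.

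The measured genes of the meiosis and pollen lists varied little, with widest ranges of 0.27 and 0.38. Most loci of both lists had no probe set with a single gene name and were not read. Of 13354 named genes other than AMS and EMS1, 4338 held 1 value on all arrays. In the meiosis list 6 of 28 loci were measured, 5 of them held 1 value on all arrays, and SDS, a meiotic cyclin gene, ATSPO11-1, which encodes the protein that breaks DNA to start recombination, and RCK, a helicase gene of crossover formation, were at the lowest value of 2.15 throughout. ATMND1, a recombination gene, had 3.68 on all Columbia arrays, against 3.68 and 3.95 in Landsberg erecta. Summed on the linear scale, the measured meiosis genes read 37.4 in all Columbia arrays and 37.4 to 40.0 in Landsberg erecta. EME1A, which alone matched a text search for meiosis words in the gene synonyms, had 4.19, 3.77 and 3.73 in Columbia, against 3.90 on both Landsberg erecta arrays.

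In the pollen list 13 of 32 loci were measured and 8 held 1 value on all arrays, beside 4338 of 13354 named genes. Of these 8, 7 sat at the lowest value, where 24.4% to 25.2% of probe sets lay on each single array. The 7 were ANX1 and ANX2, receptor kinase genes of the pollen tube, ACT12, an actin gene of pollen, the MADS-box genes AGL66, AGL94 and AGL104, and AT4G39110. MGH3, a histone gene of the male germline, held a value that also rounds to 2.15 on all arrays but lies just above the lowest. The list's members with clear signal were ACT11 and TUA1, cytoskeleton genes, whose ranges were 0.38 and 0.29 and which were not lowest on Columbia replicate 3. ACT11 had 9.41, 9.79 and 9.66 in Columbia, against 9.63 on both Landsberg erecta arrays. The list had a median r of -0.08 over the 5 genes that varied, and 0.10 by Spearman correlation. Summed on the linear scale it read 1008 to 1266 in Columbia and 1114 to 1134 in Landsberg erecta. INP1, a gene of pollen aperture formation that carries the word pollen among its synonyms, held 2.15 throughout.

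Other measured floral genes were mostly at 1 value on all arrays, with exceptions, beside 4338 of the 13354 named genes. UFO, the single measured gene of 14 for floral meristem and organ identity, was at 2.15 on every array. In the carpel and ovule list 3 of 14 loci were measured: INO, an ovule gene, held 2.15, while SPT, a carpel gene, and NGA1, a gene of style development, ranged over 0.18 and 0.15. Of 49 genes whose names or synonyms mention flowers, floral organs or MADS-box proteins, 32 were identical on the 5 arrays (27 at the lowest value), and the median r of the 17 that varied was 0.08, a value without a stable sign (-0.14 with equal array medians and -0.30 by Spearman correlation). AGL26, AGL24 and AGL42 gave the strongest signals in that group, with ranges of 0.34, 0.41 and 0.59 and r values of -0.20, 0.09 and -0.70. AT1G30260 had the widest range there, with 5.84, 6.29 and 7.66 in Columbia, against 6.72 and 6.47 in Landsberg erecta, and an r of -0.82. BPEp, a bHLH gene of petal growth, had 5.01, 5.63 and 5.01 in Columbia, against 5.04 and 4.85 in Landsberg erecta (r = 0.08).

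Relatives of the members could be looked up only by words in RefSeq symbols and synonyms, so a locus without such a name, as AT1G06170, is not in this search whatever its family. It found 7 genes of basic helix-loop-helix proteins, the family of AMS, while the words for leucine-rich repeat kinases, the family of EMS1, found no gene (0). None of the 7 had a range of at least 1 (0 of 7), where 4.07% of all named genes passed the filter. With 7 genes, 0 is near that share and is no result about the family. For those of the 7 that varied, r lay between -0.74 and 0.47. ILR3, bHLH115 and bHLH121, the 3 with the strongest signals, ranged over 0.14, 0.26 and 0.35. AT1G22490 had the widest range, with 4.87, 4.07 and 4.03 in Columbia, against 4.13 and 4.03 in Landsberg erecta (r = 0.16). BRL1, a brassinosteroid receptor gene and the single measured one of 15 genes of EMS1 and brassinosteroid signalling, was near the floor at 2.17, 2.17 and 2.36 in Columbia, against 2.17 on both Landsberg erecta arrays.

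Genes of the stem, green tissue, pectin enzyme and oleosin lists that varied had r between -0.64 and 0.41 with the mean of AMS and EMS1. Among the tissue markers here, only GUT2 had a range of at least 1. GUT2, which acts in making the xylan of secondary cell walls, was the single measured stem marker of 17. It had 5.79, 6.88 and 8.27 in Columbia, against 7.68 and 8.01 in Landsberg erecta. GUT2 was highest on Columbia replicate 3, where AMS and EMS1 were lowest, and lowest on Columbia replicate 1, where they were intermediate (r = -0.36). PME61, a pectin methylesterase gene, had 6.25, 7.91 and 9.37 in Columbia, against 8.48 and 9.13 in Landsberg erecta, with the same arrays at its extremes (r = -0.33). PMEPCRF, of the same enzyme family, had 8.65, 9.69 and 10.14 in Columbia, against 9.40 and 9.58 in Landsberg erecta (r = -0.51), and ATPMEPCRB, the third that varied of 4 measured pectin enzymes, ranged over 0.58 (r = 0.41). The green tissue genes RCA and LHCB4.1 were strong on all arrays and ranged over 0.23 and 0.31. LAS and CLV3, the 2 measured of 11 shoot meristem genes, were at the lowest value of 2.15 on all 5 arrays, so the labelled tissue was not marked by either. OLEO3, the one measured oleosin, ranged over 0.57 (r = 0.09). The part of tissue composition in the course of AMS and EMS1 was not tested.

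Other named genes were ranked by their Pearson r with the mean of AMS and EMS1, which was 5.72, 5.85 and 4.14 in Columbia, against 5.45 and 6.35 in Landsberg erecta. To keep flat genes out of the ranking, a range of at least 1 on the log2 scale and no array at the lowest value were required, which left 544 of 13354 genes. Of these, 26 had an r of at least 0.95 (4.78%) and 20 an r of -0.95 or lower (3.68%). The median r was -0.22 and 232 of the 544 were above 0. With the unnamed probe sets included, 62 of 1169 had an r of at least 0.95 and 35 one of -0.95 or lower. The 4 genes of the anther and tapetum lists among the 26 are AT1G06170, AT5G62080, AT5G07230 and AT5G52160. They are 4 of the 6 list genes past the filter, beside 4.78% of the 544. Of 15 list genes measured they are 4, beside 0.195% of all 13354, most of which could not enter the ranking. Since the lists were chosen with earlier results of these data known, these shares are a description. An r over 5 arrays is a loose measure, and no p is attached to it.

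**Figure D3:**
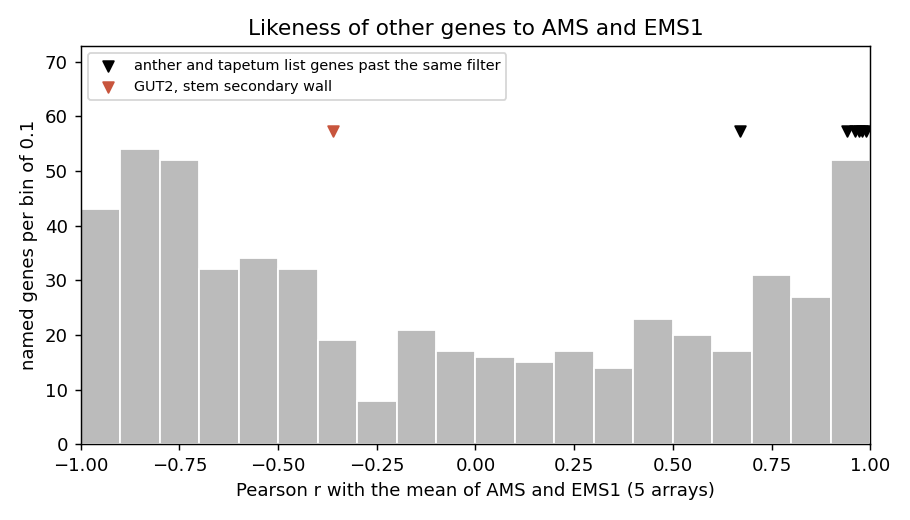
Number of named genes, out of 544 that passed the filter, in each bin of 0.1 of the Pearson r with the mean of AMS and EMS1 over 5 arrays; triangles mark the r of single genes. Of the 6 anther and tapetum list genes past the filter, 5 lie at 0.94 or above and SWEET8 at 0.67, while GUT2 lies at -0.36.

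The 10 genes most like AMS and EMS1 were AT1G06170, IQD22, AT5G02540, AT1G25510, GH3.3, AT2G16210, AT5G48360, SBT1.3, AT1G44970 and AT5G43020, with r from 0.993 to 0.982. IQD22, which encodes an IQ-domain protein, had 5.80, 5.77 and 4.80 in Columbia, against 5.60 and 6.0 in Landsberg erecta. GH3.3, of the family that couples auxin to amino acids, had 6.24, 6.18 and 5.40 in Columbia, against 6.02 and 6.58 in Landsberg erecta. AT2G16210, annotated as REM24 for reproductive meristem, had 5.83, 5.90 and 4.24 in Columbia, against 5.61 and 6.15 in Landsberg erecta. All 3 had their minimum on Columbia replicate 3 and their maximum on Landsberg erecta replicate 2. SBT1.3, a subtilase gene, had the same lowest and highest arrays at higher signal, with 10.33, 10.31 and 9.38 in Columbia, against 10.22 and 10.51 in Landsberg erecta. AT1G44970 had the widest range of the 10, with 8.53, 8.92 and 7.19 in Columbia, against 8.68 and 9.30 in Landsberg erecta.

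All 26 genes with an r of at least 0.95 were lowest on Columbia replicate 3 and highest on Landsberg erecta replicate 2, as follows from how they were chosen. Their values on Columbia replicate 3 differed from the mean of the other Columbia arrays by -2.27 to -0.67, with a median of -0.99, so most lay less far down than AMS (-1.69) and EMS1 (-1.59). AT4G29980 lay furthest down and was named for that after its values were seen, with 5.55, 5.56 and 3.28 in Columbia, against 5.55 and 6.05 in Landsberg erecta. Of the 26, 9 repeated a value between arrays, as EMS1 did. Without Columbia replicate 3 and without a minimum range, 8 of the 26 still had an r of at least 0.95 over 4 arrays, and the median was 0.90, with values from 0.62 to 0.99. The likeness of AT1G06170 and AT2G16210 on these 4 arrays was 0.97 and 0.99. None of the 26 passed the limma test between the ecotypes (0).

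The 10 genes that ran most opposite to AMS and EMS1 were AT3G22750, AT5G61660, AT1G61667, AT1G19960, AT1G75460, AT2G24550, AT2G37540, AT4G15680, AT5G65660 and AT1G26290, with r from -0.990 to -0.975. AT4G15680 had the widest range of them, with 3.46, 3.29 and 5.33 in Columbia, against 3.46 and 2.90 in Landsberg erecta. AT2G37540 had 4.17, 4.34 and 6.06 in Columbia, against 4.73 and 3.92 in Landsberg erecta. Both had their maximum on Columbia replicate 3 and their minimum on Landsberg erecta replicate 2. Of the 20 genes with an r of -0.95 or lower, all were highest on Columbia replicate 3 and 19 were lowest on Landsberg erecta replicate 2. AMY1, annotated as an alpha-amylase, and SWEET11, a sucrose transporter gene, are among the 20 and were named after their values were seen. SWEET11 had 6.50, 6.53 and 7.49 in Columbia, against 6.53 and 6.40 in Landsberg erecta. None of the 20 passed the limma test between the ecotypes (0).

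**Figure D4:**
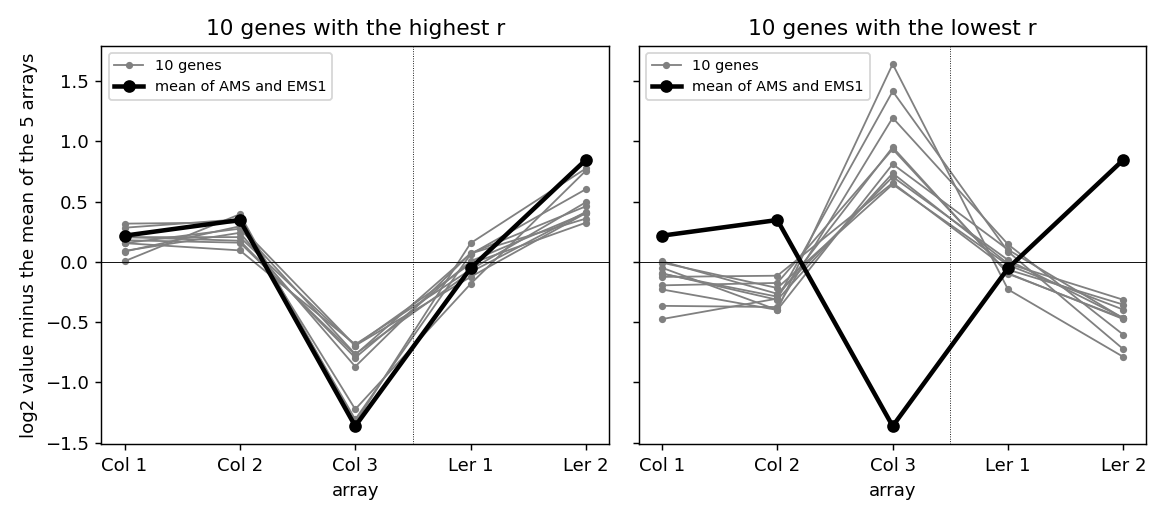
Log2 value minus the 5-array mean for the 10 genes with the highest r and the 10 with the lowest r (grey; each line joins the arrays of 1 gene), with the mean of AMS and EMS1 in black. The minimum (left) or maximum (right) of every grey line is on Columbia replicate 3.

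The threshold of 0.95 has no natural gap beside it. AT3G07450 and AT1G73620 were just inside, with r of 0.954 and 0.951, and AT4G11190 and AT3G52130 just outside, with 0.948 and 0.947. On the other side SWEET11 and AT5G25240 were just inside, with -0.955 and -0.954, and EXPA8 and AT1G49500 just outside, with -0.948 and -0.947.

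Columbia replicate 3 was the lowest array for 142 of the 544 genes and the highest for 246, so genes that were low on it, as AMS and EMS1 were, made up the smaller group. Columbia replicate 1 was the lowest array for 158 genes and Columbia replicate 2 for 130.

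On the chromosomes, the measured neighbours of the members are too few for a result about neighbours, and their values are given as a description. Among the 10 protein-coding genes on either side of AMS in the RefSeq order, 14 were measured, 6 held 1 value on all arrays and none had a range of at least 1 (0). Of all named genes, 4.07% had such a range with no array at the lowest value. Around EMS1, 7 were measured, 2 held 1 value on all arrays and 1 had a range of at least 1. That gene is AT5G07230, the tapetum list gene with an r of 0.97, which lies 5 coding genes away from EMS1. IQD24, 4 coding genes away on the same side, ranged over 0.48 with an r of 0.93.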

How the data were processed

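Per the labels' protocols, Trizol extracts of total RNA (2 ug) were turned into biotinylated cRNA and hybridised to Affymetrix arrays. The values the authors deposited range from 2.15 to 15.13, which places them on a log2 scale; their background correction, normalization and probe set summary are not given in the sources used here. The table holds 22810 probe sets, and its 64 controls were not tested. Of the 22746 tested, 6318 held 1 value on all arrays and 67.5% repeated a value between arrays. GEO's platform annotation, with names taken from RefSeq (TAIR10.1) through the gene identifier, gave 13513 probe sets with 1 gene (13436 matched to RefSeq); 503 with several genes and 8794 not listed are unnamed here. A gene was read from its probe set with the highest mean. A locus is called measured where a probe set carries its name alone. Loci called not measured may still have an unnamed probe set on the array.

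Differences are Columbia minus Landsberg erecta, fitted over all 5 arrays without covariate or filter by lmFit and eBayes of limma 3.58.1 (R 4.3.3) and adjusted by Benjamini-Hochberg over all tested probe sets, threshold 0.05; the fit was tested on simulated data. With 3 and 2 arrays, their number limits the precision, and p-values measure the spread between these arrays. Correlations, lists and figures were computed in Python 3.11.15 with matplotlib 3.10.9.

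The members, 12 lists by locus (212 loci, 46 measured) and 10 lists by words in RefSeq symbols and synonyms were chosen with earlier results of these data known. The list by locus of stamen maturation and anther opening had 0 measured genes. The words for lipid transfer proteins, GDSL lipases and leucine-rich repeat kinases found 0 genes. Members of these families without such words in their names, as EMS1, can still be measured. The list by anther words held only AMS and EMS1. Named genes are AMS and EMS1, the 10 with the highest and the 10 with the lowest r, and per list the 3 with the highest mean and the 3 with the widest range; others are named with a remark. Alternatives were other scalings, filters, thresholds and measures of likeness, eBayes with a trend or robust, a replicate block and each array left out.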

Additional observations from a re-analysis of the deposited data

How the results depend on the processing

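The numbers of probe sets higher and lower in Columbia, 0 and 0, were also 0 and 0 after quantile normalization or setting equal medians, after removing the dimmest 25% of probe sets or those at 1 value, with eBayes with a trend or robust, at an adjusted p under 0.10 and with a replicate block. The unadjusted threshold of 0.05 gave 265 and 141. Leaving out 1 array at a time gave 0 to 356 and 0 to 658; calls appeared only where 1 Landsberg erecta array remained, assumed to vary like the Columbia arrays (356 and 658 without replicate 1, 279 and 656 without replicate 2). Over these fits the AMS difference lay between -0.88 and 0.18 and the EMS1 difference between -1.34 and -0.41; quantile normalization (-0.38 and -0.92) and equal array medians (-0.37 and -0.91) moved them little. Paired by replicate number, a block that drops Columbia replicate 3, they were 0.18 and -0.41. The labels do not say that the numbers pair arrays, and deviations of same-numbered arrays correlated at -0.02 and 0.08 across probe sets.

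The counts of genes with r of at least 0.95 and of -0.95 or lower, 26 and 20, were 24 and 20 with equal array medians and 26 and 18 with quantile normalization. They were 134 and 117 with no minimum range and 66 and 56 with a minimum of 0.5, where more genes enter. With AMS alone they were 17 and 18, with EMS1 alone 27 and 14, and 40 and 30 after subtracting ecotype means; the cause was not tested. With only genes of 5 different values, chosen after seeing the data, they were 17 and 12 of 371 genes. Leaving out 1 array at a time gave 16 to 46 and 6 to 55, the lowest without Columbia replicate 3, where 257 genes kept a range of at least 1 and 0 genes of either set were among the 16 and 6. Of the medians of r for 5 lists, 2 of 40 alternatives moved by more than the SD between genes, both without Columbia replicate 3: pectin enzymes (0.43) and basic helix-loop-helix proteins (-0.41). The median of pollen wall and tapetum products fell from 0.90 to 0.55 without that array, which is within that SD. Small medians changed sign within that SD: over the alternatives the pollen list lay between -0.48 and 0.10 and the flower and MADS-box list between -0.48 and 0.24. The value of -0.48 came with equal array medians, which give genes at 1 value the course of the array shifts; restricted, after seeing the data, to genes that varied as deposited, it was -0.19 and -0.14.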
